A study of Oryza sativa with 60 samples.

Results

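A set of 163 genes had higher mean levels in rice anthers of every length from 0.4 to 1.4 mm than at any greater length. The later levels were lower but not always low, and 47 of the genes still had a mean of at least 5 FPKM at 1.6 mm. They were chosen from 35594 genes by their level in polyadenylated RNA. For each gene the mean log2(FPKM + 1) was taken at each of 10 anther lengths, where FPKM is the number of fragments scaled to transcript length and to the mapped fragments of the library. The gap of a gene is its lowest mean within a run of neighbouring lengths minus its highest mean outside that run. Genes were kept when their largest gap fell on the run of 6 lengths from 0.4 to 1.4 mm, was at least 1 on the log2 scale, and came with a mean of at least 5 FPKM at each of the 6 lengths. A limit of 200 genes was not reached.

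The anthers came from wild-type plants of Kitaake, a japonica rice cultivar, grown in a greenhouse, and there was no treatment. Lengths were 0.4, 0.6, 0.8, 1.0, 1.2, 1.4, 1.6, 1.8, 2.0 and 2.5 mm, with 3 biological replicates each, and RNA of many whole anthers was pooled in every sample. The 30 mRNA libraries are used here, and the 30 small RNA libraries of the series are not analysed here. Whether replicates came from separate plants is not stated, so p-values measure the spread between these samples.

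The anther is the pollen-forming organ of the flower. Inside its wall the male germ cells go through meiosis, are released as microspores and mature into pollen. The tapetum, the innermost wall layer, feeds them, supplies material for the pollen coat and then breaks down, so an anther of each length holds another mixture of cells and stages. Many genes of meiosis and of the tapetum are known to be transcribed over limited windows of anther growth. Which of these processes the 163 genes belong to cannot be said here, because 0 of the 35594 gene IDs occurred in the RefSeq gene table of Oryza sativa used for names. Genes are therefore given by ID and only a few are named, no function is attached to them, and the labelled tissue could not be checked against marker genes.

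In every library the number of genes with at least 1 FPKM lay between 17391 and 21213. In 1.4 mm replicate 1 a single gene, not a member, held 83170 of 532167 FPKM. The highest value in any other library was 15023. The median over all tested genes was 3.99 FPKM in 1.4 mm replicate 1, against 5.70 and 4.81 in replicates 2 and 3. The effect of this gene on the values at 1.4 mm was not tested. The sequencing depth behind the FPKM is unknown, and whether low values come in steps of whole reads was not analysed here. Over all tested genes, 25 of 30 libraries correlated best with the mean of their own length. The other 5 were 0.4 mm replicate 3 (closest to 0.6 mm), 0.8 mm replicate 3 (closest to 1.0 mm), 1.2 mm replicate 2 (closest to 1.0 mm), 1.2 mm replicate 3 (closest to 1.4 mm) and 2.5 mm replicate 3 (closest to 2.0 mm). Over the 163 genes alone the same 5 libraries stood closer to a neighbouring length. All 30 libraries were closest to a length on their own side of the boundary between 1.4 and 1.6 mm, which the choice of genes favours.

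The boundary between 1.4 and 1.6 mm was one of the common places for such a loss. Over the 54 possible runs the same rule kept 5534 genes without the limit of 200, and the 163 were 2.95% of them. Among genes that were high from the start of the series, 222 were lost after 0.4 mm, 151 after 0.6 mm, 36 after 0.8 mm, 92 after 1.0 mm, 24 after 1.2 mm, 163 after 1.4 mm, 14 after 1.6 mm, 65 after 1.8 mm and 1305 after 2.0 mm. Losses after 1.4 mm were thus more numerous than those after 0.6, 0.8, 1.0, 1.2, 1.6 or 1.8 mm, and fewer than those after 0.4 or 2.0 mm. In the other direction, 294 genes were high only from 1.6 to 2.5 mm. These counts describe the rule and were not tested.

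**Figure D1:**
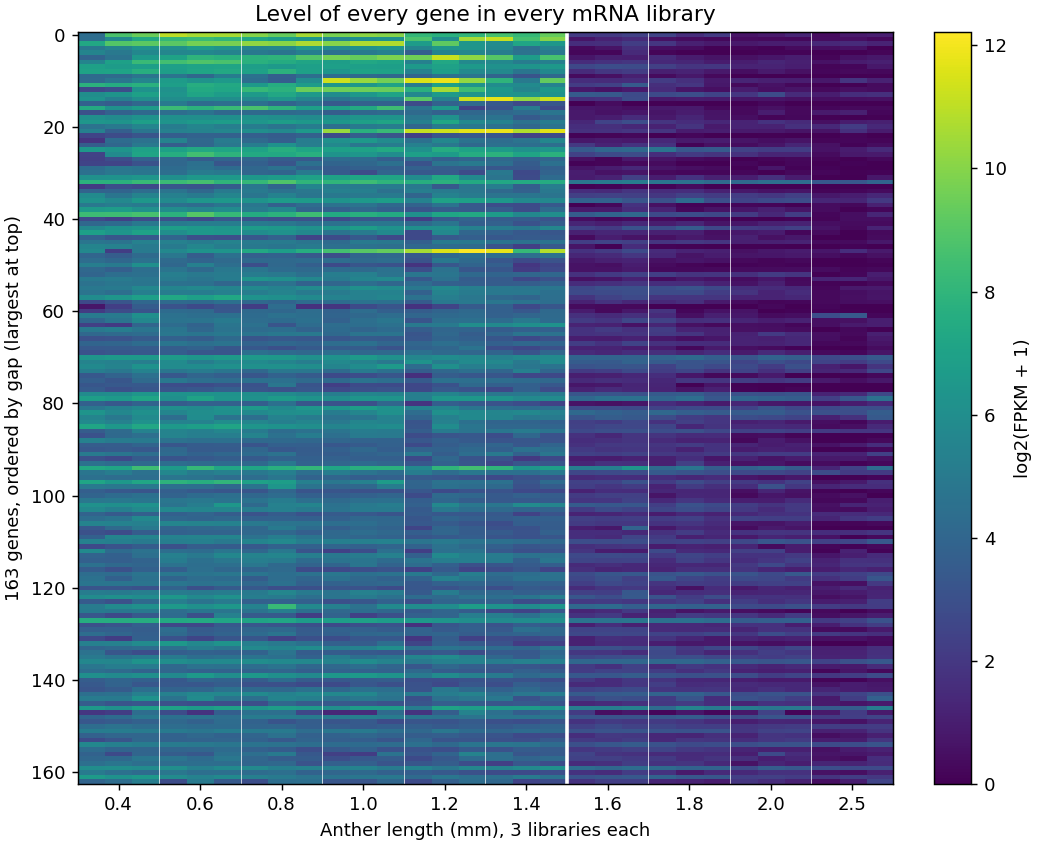
Level of each of the 163 genes (rows, ordered by gap with the largest at the top) in each of the 30 mRNA libraries (columns, 3 for each anther length in mm), as log2(FPKM + 1). The thick white line marks the boundary between 1.4 and 1.6 mm, and libraries to its right are darker in nearly every row, which is how the genes were chosen.

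The values used by the rule describe the members and carry no test. Gaps ranged from 1.00 to 5.33 on the log2 scale with a median of 1.55. They were at least 2 in 51 genes, at least 3 in 15 and at least 4 in 6. Just inside the limit 21 genes had gaps of 1 to 1.1, the smallest of 1.001. Just outside it 27 genes of sufficient level had gaps of 0.9 to 1, the largest of 0.995. A further 97 genes had a gap of at least 1 on this run and were left out for level: the highest of them reached 4.995 FPKM at its lowest length of the run, and the lowest member 5.04 FPKM.

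Summed over the 163 genes, anthers of 0.4 mm had 7513 ± 1706 FPKM (mean ± SD, n = 3), those of 0.6 mm 10783 ± 436, those of 0.8 mm 9946 ± 597, those of 1.0 mm 12271 ± 214, those of 1.2 mm 17271 ± 4358 and those of 1.4 mm 13240 ± 5357. Anthers of 1.6 mm had 778 ± 91.8, those of 1.8 mm 595 ± 82.3, those of 2.0 mm 425 ± 20.3 and those of 2.5 mm 264 ± 99.7. As a share of all FPKM of a library this was 2.55% ± 1.01 at 1.4 mm and 0.149% ± 0.0191 at 1.6 mm. The 10 most abundant members held 30.1% to 36.0% of the sum in the 0.4 mm libraries, 60.8% to 80.9% in the 1.4 mm libraries, 30.8% to 32.6% in the 1.6 mm libraries and 33.6% to 40.6% in the 2.5 mm libraries. In whole anthers, fewer cells of a type and less RNA per cell cannot be told apart.

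**Figure D2:**
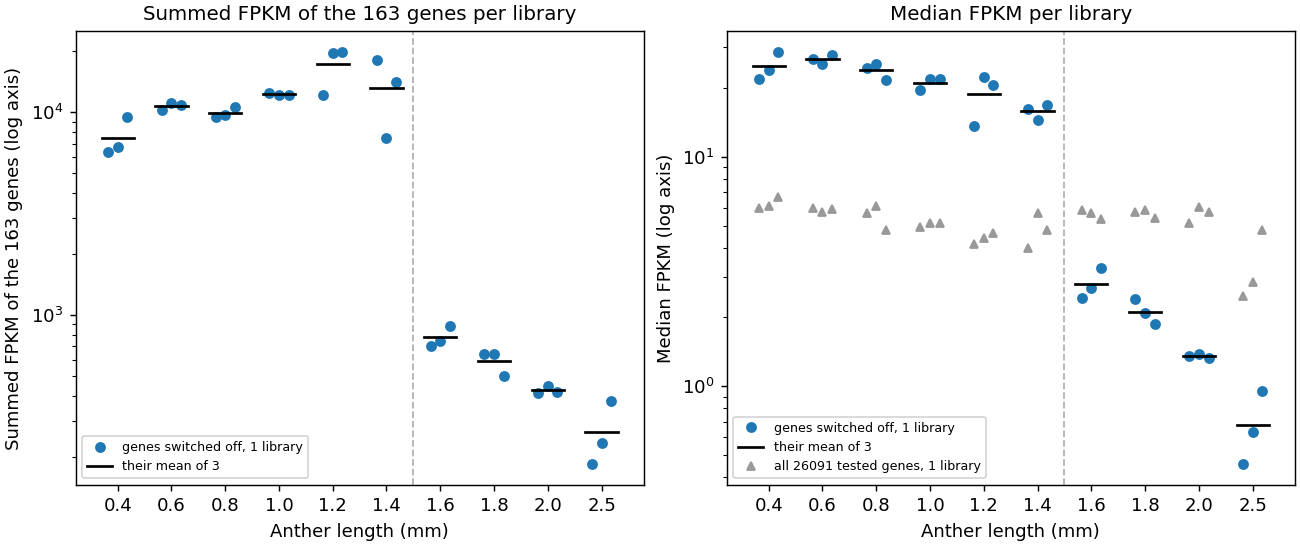
Summed FPKM of the 163 genes (left) and their median FPKM (right) in each library, by anther length in mm, on log axes. Dots are libraries, bars are means of 3, grey triangles are medians over all 26091 tested genes, and the dashed line is the boundary between 1.4 and 1.6 mm; the sums lie between 6341 and 19894 to its left and between 184 and 881 to its right.

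The median level over the members changed little along the run next to the step at its end. Over the run the median of their mean levels went from 25.6 FPKM (0.4 mm) through 26.7 (0.6 mm), 24.2 (0.8 mm), 21.5 (1.0 mm) and 18.9 (1.2 mm) to 16.1 (1.4 mm). Then it went from 2.83 (1.6 mm) through 2.07 (1.8 mm) and 1.37 (2.0 mm) to 0.706 (2.5 mm). Over all tested genes the median was 4.99 FPKM at 1.4 mm and 5.66 at 1.6 mm. The median of the members was above the first and below the second. The minimum of 5 FPKM in the run already put every member above 4.99 at 1.4 mm. The gap of at least 1 lowered what could follow, so this comparison describes the choice of genes.

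At 1.6 mm a median of 21.2% of the 1.4 mm mean FPKM was left, with 0.0887% at the lowest and 60.9% at the highest. Under 10% was left in 39 genes, 10% to 25% in 61 and at least 25% in 63. The median left was 14.7% at 1.8 mm, 9.29% at 2.0 mm and 3.26% at 2.5 mm. At 2.5 mm under 10% was left in 115 genes, under 1% in 37, and at least 25% in 7. Few of the 163 members were off at 1.6 mm in the sense of an absent transcript: 25 had a mean under 1 FPKM and 47 still had at least 5 FPKM. Of all 26091 tested genes 20.7% had a mean under 1 FPKM at 1.6 mm, and 13705 had at least 5 FPKM. Of the whole log2 drop of a member after 1.4 mm, a median of 66.4% had been made by 1.6 mm. It was at least 75% in 51 genes and under 50% in 34.

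**Figure D3:**
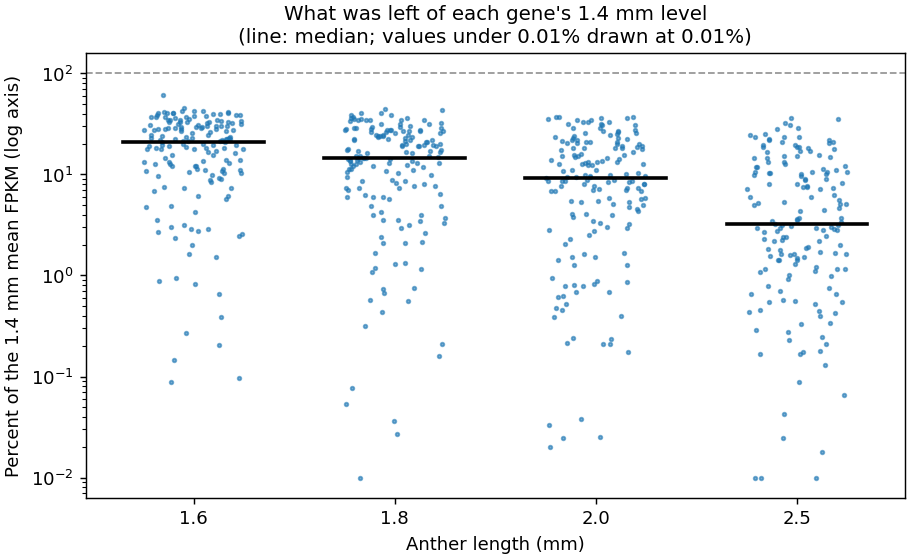
Mean FPKM of each of the 163 genes at 1.6, 1.8, 2.0 and 2.5 mm as a percent of its own mean at 1.4 mm, on a log axis; dots are genes and bars are medians. The medians go from 21.2% at 1.6 mm to 3.26% at 2.5 mm, with a wide spread among genes at each length.

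Single libraries told the same story for most members, again as a description of the choice. In 152 of the 163 genes all 18 libraries of 0.4 to 1.4 mm lay above all 12 libraries of 1.6 to 2.5 mm, against 3.38% of the 26091 tested genes. In 162 the libraries of 1.4 mm all lay above those of 1.6 mm, against 18.8% of tested genes. A value of 0 was listed for 0 members in any library up to 1.4 mm. In the later libraries 26 members were listed at 0 at least once, with 0 to 1 per library at 1.6 mm, 1 to 5 at 1.8 mm, 6 in each library at 2.0 mm and 9 to 13 at 2.5 mm. The members listed at 0 in all 3 libraries of 2.5 mm were 3.

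In limma (adjustment by Benjamini-Hochberg over all 26091 genes, calls at an adjusted p under 0.05 and a log2 fold change of at least 1), 160 of the 163 were called lower at 1.6 than at 1.4 mm, against a background of 7.83% (20.7% in either direction), and 0 higher, against 12.9%, with 0 higher at an unadjusted p under 0.05. This is the contrast the rule used, and nothing is read from it. One of the 3 that were not called, OsKitaake01g232300.v3.1, had 252, 80.8 and 114 FPKM at 1.4 mm and 36.5, 37.2 and 80.6 FPKM at 1.6 mm (log2 fold change -1.45, adjusted p = 0.0831 in limma, n = 3). Its groups at this step did not overlap, though its lowest value at 1.4 mm and its highest at 1.6 mm were nearly equal, and its value of 50.8 FPKM in 1.2 mm replicate 1 was below its highest value at 1.6 mm. The 1 member whose libraries overlapped at this step, OsKitaake03g029000.v3.1, named after its values were seen, had 7.47, 7.49 and 10.7 FPKM at 1.4 mm and 1.03, 0.717 and 13.9 FPKM at 1.6 mm. Replicate 3 of 1.6 mm alone was high. The other members not called, also named after their values were seen, were OsKitaake03g173850.v3.1 (log2 fold change -1.001) and OsKitaake07g033800.v3.1 (log2 fold change -1.08), with limma adjusted p of 0.169 and 0.161.

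The gene with the largest gap, OsKitaake03g275200.v3.1, was abundant through the run. Replicates 1, 2 and 3 had 19.7, 428 and 719 FPKM at 0.4 mm, 2049, 1549 and 1580 at 0.6 mm, 1021, 656 and 1526 at 0.8 mm, and 855, 1118 and 1016 at 1.0 mm. They had 275, 212 and 250 FPKM at 1.2 mm and 394, 290 and 633 at 1.4 mm. From 1.6 mm on every library was under 5 FPKM, with 3.48, 3.21 and 4.21 at 1.6 mm, 4.73, 1.98 and 3.15 at 1.8 mm, 0.562, 0.824 and 1.36 at 2.0 mm, and 0.328, 0.85 and 1.03 at 2.5 mm. Its lowest value before the boundary, in 0.4 mm replicate 1, was still above every value after it. From 1.4 to 1.6 mm its mean went from 439 ± 176 to 3.64 ± 0.518 FPKM (n = 3).

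The gene with the next largest gap, OsKitaake04g231900.v3.1, had a dip in the middle of the run. It had 19.8, 52.1 and 170 FPKM at 0.4 mm, 277, 315 and 265 at 0.6 mm, 152, 114 and 86.5 at 0.8 mm, and 48.0, 70.0 and 75.01 at 1.0 mm. At 1.2 mm the replicates stood far apart, with 431, 63.9 and 1499 FPKM, and at 1.4 mm they had 2264, 392 and 1036. At 1.6 mm it had 0.621, 1.23 and 1.74 FPKM, and all 9 later values were between 0.184 and 0.463. Its mean of 1231 ± 951 FPKM at 1.4 mm was the highest it reached, one step before its loss.

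To see whether the pattern held in libraries that had not been used to choose genes, the rule was run on 2 of the 3 replicates of every length and the chosen genes were looked at in the replicate left out. With replicate 1 left out 186 genes were chosen. In replicate 1 all 6 libraries of the run lay above the 4 later ones in 160 of these (86.0%), against 9.47% of the 10431 genes at the same minimum level, and the median gap was 1.06 against -0.92. With replicate 2 left out the count was 166 of 174 (95.4%), against 11.5%, and with replicate 3 left out it was 122 of 123 (99.2%), against 13.2%. The median gaps in the left-out replicate were 1.25 and 1.51. A gap of at least 1 was seen again in 52.2%, 62.6% and 79.7% of the chosen genes for replicates 1, 2 and 3, against 1.31%, 1.64% and 1.86% at the same level. Of the 163 members, 139, 135 and 115 were chosen again without replicates 1, 2 and 3. The run itself was taken up with results of all libraries known, and the genes at the same minimum level include the chosen ones. These shares are a description and were not tested.

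Within the run the members were not steady. The highest mean over the 6 lengths was a median of 2.44 times the lowest, with 1.23 times in the steadiest gene and 113 times in the most variable one. The range was under 2-fold in 56 genes, 2-fold to 4-fold in 68 and at least 4-fold in 39, of which 13 reached 10-fold. The highest mean of the run fell at 0.4 mm in 44 genes, at 0.6 mm in 44, at 0.8 mm in 27, at 1.0 mm in 19, at 1.2 mm in 15 and at 1.4 mm in 14. The lowest fell at 1.4 mm in 87 genes and at 0.4 mm in 32.

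Anthers of 1.4 mm were compared with those of 0.4 mm, the ends of the run. The rule does not use their difference, but it sets a floor at both lengths. The gap rests on the lowest mean log2(FPKM + 1) of the run. By mean FPKM, which can rank lengths otherwise, 1.4 mm was the lowest length of the run in 87 members. In limma 66 of the 163 members (40.5%, background 29.5%) were called, 16 higher and 50 lower at 1.4 mm. The members called higher were 9.82%, near the background of 11.0% of all tested genes, and those called lower were 30.7%, against 18.5%. Of all tested genes 20.1% had a mean under 1 FPKM at 0.4 mm, while every member had at least 5 FPKM at both lengths. A background of like level was not computed for this comparison or for the other limma comparisons. The members changed by a median of -0.58 on the log2 scale. This is to be read against the median of -0.28 over all tested genes under this scaling. Quantile normalization, which gives all libraries one distribution, moved the median of all genes to -0.07 and gave 22 members higher and 42 lower. All genes were then 3561 higher and 3524 lower, against 2874 and 4814 before. A fit on these 2 lengths alone called 10 members and 2511 of all genes higher.

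The largest rise inside the run was that of OsKitaake03g054100.v3.1. It had 38.6, 12.1 and 25.6 FPKM at 0.4 mm, 39.6, 43.3 and 47.4 at 0.6 mm, 65.4, 52.8 and 96.9 at 0.8 mm, and 1266, 216 and 312 at 1.0 mm. It then had 2286, 2572 and 3389 FPKM at 1.2 mm and 3705, 1708 and 3198 at 1.4 mm. At 1.6 mm it was at 2.35, 2.50 and 2.79 FPKM, so the highest group of the series stood directly beside a low one. The rise from 25.4 ± 13.3 to 2870 ± 1038 FPKM (n = 3) was a log2 fold change of 6.83 (SE 0.45, limma adjusted p = 4.39e-12).

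The next largest rise was that of OsKitaake02g001700.v3.1, from 51.0, 3.68 and 31.5 FPKM at 0.4 mm to 3420, 288 and 1817 at 1.4 mm (5.93 on the log2 scale, SE 0.68, limma adjusted p = 8.54e-08, n = 3). Its highest values were at 1.2 mm, with 1508, 3047 and 4751 FPKM. At 1.6 mm it had 2.41, 3.30 and 5.73 FPKM, so the low value of 0.4 mm replicate 2 lay inside the 1.6 mm range. At 1.4 mm replicate 2 was lowest in both of these genes, and it was also lowest in the sum over all members, with 7510 FPKM against 18121 and 14091 in replicates 1 and 3.

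The largest fall inside the run was that of OsKitaake04g134900.v3.1, which declined by degrees. It had 117, 82.4 and 127 FPKM at 0.4 mm, then means of 79.8 ± 14.2 (0.6 mm), 60.9 ± 10.2 (0.8 mm), 37.2 ± 15.3 (1.0 mm) and 24.1 ± 24.1 (1.2 mm; SD, n = 3). At 1.4 mm it had 12.9, 9.67 and 8.51 FPKM and at 1.6 mm 1.20, 1.48 and 1.496. The log2 fold change from 0.4 to 1.4 mm was -3.27 (SE 0.43; limma adjusted p = 7.38e-07). Its means were lower at each length than at the one before.

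OsKitaake01g308100.v3.1, with the next largest fall, had its highest mean at 0.6 mm and lost its level unevenly after 1.0 mm. It had 178, 71.5 and 104 FPKM at 0.4 mm and 319, 232 and 311 at 0.6 mm. It then had 413, 239 and 117 FPKM at 0.8 mm and 126, 171 and 339 at 1.0 mm. At 1.2 mm the replicates had 25.0, 94.5 and 4.12 FPKM, at 1.4 mm 7.58, 33.0 and 5.42, and at 1.6 mm 0.678, 0.539 and 0.429. The log2 fold change from 0.4 to 1.4 mm was -3.17 (SE 0.66; limma adjusted p = 3.49e-04, n = 3).

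**Figure D4:**
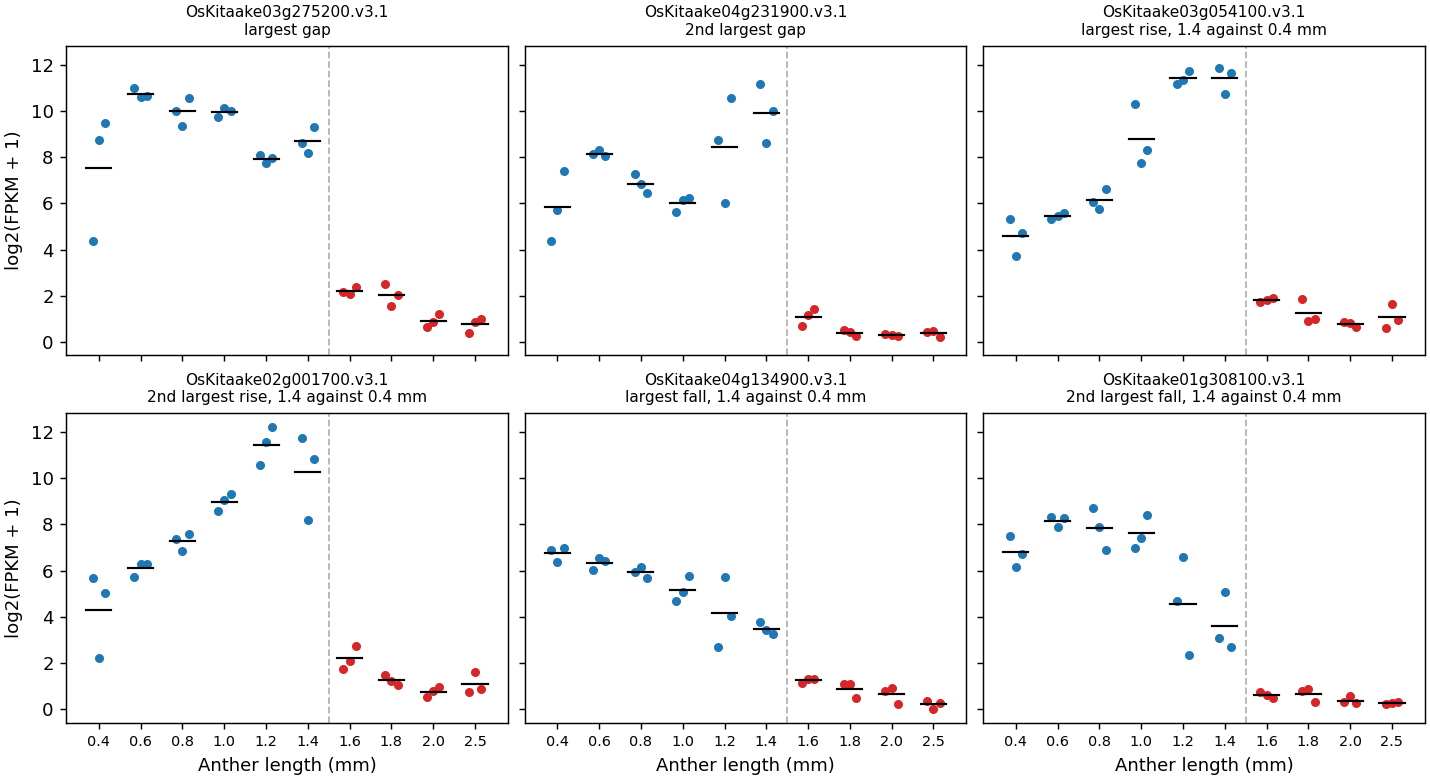
Values of 6 members in every library as log2(FPKM + 1), by anther length in mm, with blue dots for libraries of 0.4 to 1.4 mm, red dots for later ones, black bars for means of 3 and a dashed line at the boundary. The genes with the largest rises stood highest at 1.2 or 1.4 mm, those with the largest falls were already low at 1.4 mm, and all 6 were near 0 to 3 afterwards.

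Members called higher at the end of the run had the smallest share of their level left after it. The 16 called higher at 1.4 than at 0.4 mm had a median of 20.2 FPKM at 0.4 mm, 69.3 at 1.4 mm and 1.099 at 1.6 mm, and a median of 0.919% of the 1.4 mm level was left at 1.6 mm. The 50 called lower had medians of 42.3, 11.7 and 2.65 FPKM at these lengths, with 27.2% left. The 97 that were not called had 18.7, 17.9 and 3.64 FPKM, with 22.0% left. The 1.4 mm libraries enter both the grouping and the percent left, so these shares are not independent of it, and the difference between the classes was not tested.

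At the last step of the run, from 1.2 to 1.4 mm, few members were called. In limma 10 were called, 6.13% against 5.26% of all tested genes. Of these 9 were lower (5.52%, background 2.29%) and 1 was higher (0.613%, background 2.97%). A fit on these 2 lengths alone called 0 members and 0 of all genes in either direction, with 19 members at an unadjusted p under 0.05. The number lower was 17 when replicate 1 of 1.2 mm was left out, 5 when its replicate 2 was, and 4 when replicate 2 of 1.4 mm was. All genes called lower were 557, 217 and 395 in these fits, against 597 with every library. The number higher was 3 with replicate 3 of 1.2 mm left out, 2 with replicate 2 of 1.4 mm left out, and 0 with replicate 1 of 1.2 mm or replicates 1 or 3 of 1.4 mm left out. In that order all genes called higher were 1375, 602, 633, 1015 and 559, against 776 with every library.

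The libraries of 1.2 mm stood apart from each other in these genes. Over the 163 members, replicate 2 correlated at r = 0.934 with the 1.0 mm mean and at 0.778 with the 1.4 mm mean, while replicate 3 correlated at 0.745 and 0.942, and replicate 1 at 0.836 and 0.876 (correlations across genes, which are not independent). The median SD of log2(FPKM + 1) between replicates was 0.51 at 1.2 mm, the highest of the 10 lengths, against 0.30 for genes of the same minimum level. The part of these libraries in the counts for this step, beyond leaving each out, was not tested.

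OsKitaake03g067500.v3.1, the member called higher, had 25.6, 34.6 and 37.9 FPKM at 1.0 mm, 538, 39.7 and 2440 at 1.2 mm, and 3478, 1219 and 2452 at 1.4 mm. Its replicate 2 of 1.2 mm thus stood at the 1.0 mm level and its replicate 3 at the 1.4 mm level. Its log2 fold change of 2.53 (SE 0.75, limma adjusted p = 0.041) was called in 3 of 12 alternative settings, with adjusted p from 4.60e-05 to 0.659. It was 0.93 with replicate 2 of 1.2 mm left out and 3.88 with replicate 3 left out. At 1.6 mm the gene had 2.12, 2.37 and 5.82 FPKM.

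Among the falls at this step, OsKitaake08g212100.v3.1 was highest at 1.0 and 1.2 mm. It had 20.6, 11.7 and 60.3 FPKM at 0.8 mm, 2512, 1284 and 790 at 1.0 mm, 2907, 3733 and 1193 at 1.2 mm, and 249, 31.4 and 616 at 1.4 mm. The log2 fold change from 1.2 to 1.4 mm was -3.78 (SE 0.69; limma adjusted p = 0.00121, n = 3), with adjusted p up to 0.606 under the alternatives. OsKitaake04g148200.v3.1 had 218, 1527 and 326 FPKM at 1.2 mm and 86.3, 46.6 and 87.4 at 1.4 mm (log2 fold change -2.74, SE 0.66, adjusted p = 0.0114). That call was lost with replicate 2 of 1.2 mm left out (adjusted p = 0.162), with that of 1.4 mm left out (adjusted p = 0.0614) and in the fit on these 2 lengths alone (adjusted p = 0.606).

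After the boundary some members were lower still. The rule does not use the differences among the later lengths, but it sets a ceiling on them, which limits rises from 1.6 mm and not falls. The highest later mean FPKM was at 1.6 mm in 114 members. The gap rests on the highest later mean log2(FPKM + 1), so the counts below are in part fixed by the choice of genes. From 1.6 to 2.0 mm limma called 29 of 163 members, all lower (17.8%), against 5.16% of all tested genes lower and 11.4% in either direction. On the log2 scale the members had a median change of -0.61 and all genes one of -0.03. No member was called higher, 0 against a background of 6.26%, with 2 members higher at an unadjusted p under 0.05. The scale log2(FPKM + 1) understates changes of low genes. With a pseudocount of 0.1 the number lower was 67 members and 1754 of all 26091 genes, and after rescaling to TPM it was 57 members and 1714 genes, against 1346 genes in the fit given first.

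From 1.6 to 2.5 mm limma called 81 members lower (49.7%), against 30.0% of all tested genes, and 0 higher, against 9.06% (39.0% in either direction), with 0 higher at an unadjusted p under 0.05. All genes together shifted by a median of -0.53 on the log2 scale, against which the median of -1.06 in the members is to be read. With quantile normalization, which brought the median of all genes to -0.13, 53 members were lower and 4364 of all genes. Without 2.5 mm replicate 3, which stood closer to 2.0 mm, 90 members were lower and 1 was higher. All genes were then 9886 lower and 2383 higher, against 7824 and 2363 with every library. The summed FPKM of the members in 2.5 mm replicate 3 was 375, against 184 and 232 in replicates 1 and 2 and 412 to 448 at 2.0 mm.

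**Figure D5:**
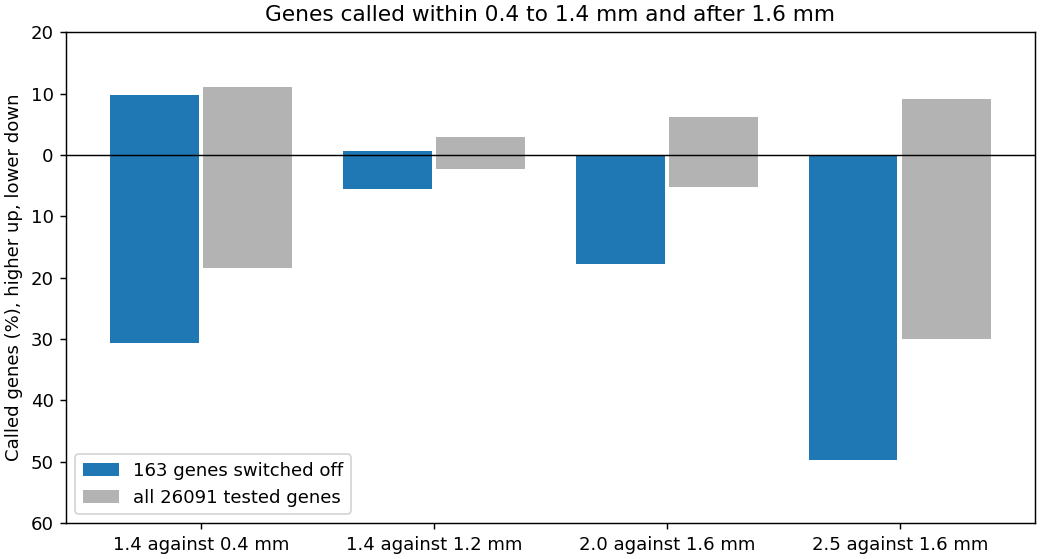
Share of the 163 members (blue) and of all 26091 tested genes (grey) called in limma in 4 comparisons between lengths on the same side of the boundary, with genes higher at the first-named length above 0 and lower ones below it, in percent. The share called lower was 17.8% of members and 5.16% of all genes for 2.0 against 1.6 mm, and 49.7% and 30.0% for 2.5 against 1.6 mm; these differences were not tested, and the choice of members bears on them.

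OsKitaake04g274300.v3.1 had the largest called fall from 1.6 to 2.0 mm. It went from 3.46, 4.16 and 10.1 FPKM at 1.6 mm to 2.09, 2.80 and 0.714 at 1.8 mm and then 0.243, 0.519 and 0.197 at 2.0 mm (-2.27 on the log2 scale, SE 0.38, limma adjusted p = 6.36e-05, n = 3). The libraries of 1.6 and 2.0 mm did not overlap. Before the boundary it had declined from 209 ± 20.7 FPKM at 0.4 mm to 52.4 ± 9.46 at 1.4 mm.

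OsKitaake02g256000.v3.1 was among the largest falls at both 2.0 and 2.5 mm. It had 104, 50.8 and 64.2 FPKM at 1.4 mm, 10.8, 14.1 and 16.5 at 1.6 mm, 5.76, 6.42 and 5.24 at 1.8 mm, 3.42, 1.63 and 3.72 at 2.0 mm, and 0.169, 0.375 and 1.45 at 2.5 mm. Every group from 1.6 mm on lay below the one before it without overlap. Against 1.6 mm its log2 fold change was -1.94 at 2.0 mm (SE 0.34, adjusted p = 1.25e-04 in limma) and -3.21 at 2.5 mm (adjusted p = 2.15e-08).

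OsKitaake01g232300.v3.1, which narrowly kept its groups apart at the boundary, also had one of the 2 largest falls to 2.5 mm. It had 36.5, 37.2 and 80.6 FPKM at 1.6 mm, 17.0, 25.5 and 11.3 at 1.8 mm, 12.5, 16.4 and 10.4 at 2.0 mm, and 1.46, 4.36 and 19.0 at 2.5 mm (log2 fold change 2.5 against 1.6 mm -2.93, SE 0.64, adjusted p = 3.59e-04 in limma, n = 3). The value in 2.5 mm replicate 3 lay within the range of 1.8 mm. This was the most abundant member at 1.6 mm.

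The later decline was not uniform. The mean FPKM of 36 members was higher at 1.8 than at 1.6 mm, of 16 at 2.0 mm and of 12 at 2.5 mm, and 82 members declined at each of the 3 steps after 1.6 mm. The 1 member that was called higher at 2.5 mm when replicate 3 of that length was left out, OsKitaake02g119200.v3.1, named after its values were seen, had 2.20, 1.70 and 2.26 FPKM at 1.6 mm and 6.43, 9.82 and 0.158 at 2.5 mm. Its 2.5 mm libraries therefore lay on both sides of the 1.6 mm libraries.

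Features other than the levels themselves were compared with those of other genes, with no test. Rows of a gene were summed before the rule was applied, so the number of entries can bear on its level. Of the members 51 (31.3%) had several transcript entries, close to 32.2% of the 10478 genes with at least 5 FPKM at every length of the run. The same share was 26.1% of the 92 genes high from 0.4 to 1.0 mm and 33.5% of the 200 genes chosen for loss after 2.0 mm. It was 9.69% of the 196 genes high at 1.2 and 1.4 mm only. No background of like level was computed for these other sets. The entries of a gene carry no name of their own in the deposited tables, so the isoforms of these 51 genes were not followed across libraries.

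By the number after the prefix of their IDs, read here as the chromosome, members occurred on all 12 chromosomes. They made up 1.56% of the genes at that level over the genome, with the highest share, 2.35%, on chromosome 4 (21 members) and the lowest, 0.81%, on chromosome 10 (4 members). Chromosome 1 held 32 members, 2.13% of its genes at that level. In the order of the IDs 19 members (11.7%) had another member within 10 places, against 8.86% of the other tested genes. The corresponding shares were 15.2% against 4.99% for genes high from 0.4 to 1.0 mm and 21.4% against 9.80% for genes high at 1.2 and 1.4 mm only. Of the 10 neighbouring pairs of members, 3 had their highest level at the same length and 2 were directly next to each other. Places in ID order are not distances, and whether neighbours are similar copies that share reads was not analysed here.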

How the data were processed

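Per the submitters' processing notes, Bowtie2 2.5.2, HISAT2 2.1.1, FastQC 0.12, cutadapt 3.0 and StringTie 2.1.4 were used, and their settings and the genome build are not given in the sources used here. Per the labels' protocols, poly(A) RNA was made into libraries with a directional kit. The authors deposited FPKM, per the file headers, in 48494 rows per library named by gene ID only. Rows were summed per ID to 35594 genes. Groups and replicate numbers are those of the sample titles.

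Genes that reached 1 FPKM in 3 or more libraries (26091, all 163 members among them) were fitted as log2(FPKM + 1) in limma 3.58.1 (R 4.3.3; lmFit, eBayes with trend) with 10 lengths as 1 factor. The fit was tested on simulated data. Fold changes are on the log2(FPKM + 1) scale. The members, lists and tests were chosen with earlier results of these data known. Lists of named anther genes matched 0 IDs and were not used. Genes given by ID are the 2 with the largest gap and, per comparison, at most 2 called rises and 2 called falls of the largest size; 4 others were named after their values were seen, as stated beside each.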

Additional observations from a re-analysis of the deposited data

How the results depend on the processing

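The rule kept 163 genes. It kept 100 with a minimum of 10 FPKM, and 123 to 186 when replicate 1, 2 or 3 of every length or 2.5 mm replicate 3 was left out. It shared 133 of 161 genes with a pseudocount of 0.1, 151 of 200 with quantile normalization, 132 of 200 after rescaling to TPM and 136 of 200 with a minimum of 1 FPKM, and the limit of 200 cut the last 3. Taking the highest row per gene gave 154, 150 of them shared.

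For 1.4 against 0.4 mm the members higher were 10 in a fit on these lengths alone and 11 to 18 with single libraries left out, and those lower 44 to 52. Over all genes these counts were 2511, 2633 to 3026 and 4139 to 5734, against 2874 higher and 4814 lower with every library. For 1.4 against 1.2 mm the members higher were 0 with a pseudocount of 0.1, without the filter, with quantile normalization, after rescaling to TPM and on these lengths alone, and 0 to 3 with single libraries left out. In the same order all genes higher were 649, 639, 804, 632, 0 and 230 to 1375, against 776 in the fit given first. The members lower were 5 with the pseudocount, 0 on these lengths alone and 4 to 17 with single libraries left out. All genes lower were then 611, 0 and 217 to 990, against 597 in the fit given first. For 2.0 against 1.6 mm the members lower were 67 with the pseudocount, 57 after rescaling to TPM, 54 by adjusted p alone and 24 to 32 with single libraries left out. All genes lower were 1754, 1714, 2405 and 1184 to 1335 in these settings, against 1346 in the fit given first. For 2.5 against 1.6 mm the members lower were 53 with quantile normalization, 116 with the pseudocount, 108 after rescaling to TPM, 102 by adjusted p alone and 71 to 90 with single libraries left out, and those higher 0 to 1. All genes lower were 4364, 10432, 10399, 11839 and 6274 to 9886 in these settings, against 7824 in the fit given first. With single libraries left out 2258 to 2402 of all genes were higher, against 2363. For 1.6 against 1.4 mm the members lower were 151 to 158 with single libraries left out. All genes lower were then 1776 to 2136, against 2043 in the fit given first. The causes of these shifts were not tested.

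Deviations of same-numbered libraries from their length means correlated at -0.205 to 0.131 in the comparisons made. Over all pairs of lengths they correlated at -0.383 to 0.342 (median -0.0022), and those with different numbers at -0.300 to 0.304 (median 0.0024), so the numbers were not taken to pair samples. With the replicate block the members higher and lower were 16 and 50 for 1.4 against 0.4 mm, 1 and 9 for 1.4 against 1.2 mm, 0 and 29 for 2.0 against 1.6 mm, 0 and 81 for 2.5 against 1.6 mm, and 0 and 160 for 1.6 against 1.4 mm, so it moved no count of members. The 13 fold changes of the genes named by rule changed sign in 0 of 156 alternatives. The genes named after their values were seen, and OsKitaake01g232300.v3.1 at 1.6 against 1.4 mm, were not recomputed. Calls were lost in 13, all at 1.4 against 1.2 mm. Without counts of reads, the precision of values near 0 is unknown.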
